A study of Bos taurus with 6 samples.

Results

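Basic helix-loop-helix (bHLH) factors bind E-box or N-box DNA as dimers, and the Krüppel-like factors (KLF) bind GC-rich DNA through zinc fingers. The members described here are the rows of the count table whose symbols carry the names of the NEUROD, NEUROG, ASCL, HES, HEY, ID, TWIST, HAND, OLIG2 and OLIG3, BHLHE, E protein (TCF3, TCF4, TCF12), MYC, MXD, ATOH, NHLH or KLF genes, without KLF1. They were 45 of the 14179 symbols in the table. OLIG2 and OLIG3 were not analysed here. One of the 45, TWISTNB, matched by its letters only: it is a synonym of POLR1F in RefSeq, a subunit of RNA polymerase I and not a bHLH factor.

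Poly(A) RNA had been sequenced from rumen, the largest forestomach chamber of cattle, from liver and from forebrain of Holstein fetuses. All 6 libraries, 2 per tissue, were labelled male, WT and 90 days of age, and no group had a treatment or an altered allele. Per the labels' protocols the fetuses came from 4 cows at a slaughterhouse, measured 13 to 16 cm from crown to rump and numbered 2 males and 2 females. The male libraries therefore came from at most 2 fetuses, and which fetus each library came from is not labelled. The p-values reflect how much these libraries varied and nothing beyond, and part of that variation may be technical.

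In development, Notch signalling switches on HES and HEY repressors, which keep progenitors from differentiating by holding down proneural genes such as those of the ASCL, ATOH and NEUROG families. NEUROD and NHLH factors act later, in young neurons. Proneural and mesodermal bHLH factors need an E protein as partner, and ID proteins, which lack the DNA-binding basic region, take E proteins away from them. MYC drives growth as a dimer with MAX, for which the MXD repressors compete. KLF4 and KLF5 are known for their part in epithelia, and KLF15 for its part in amino acid breakdown and gluconeogenesis in liver.

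Total counts ranged from 10271024 to 18528958 per library. Levels are given as CPM, the counts per 1000000 of the effective library size, which is the total after scaling by the trimmed mean of M-values (TMM). No transcript lengths were used, so levels are compared between tissues and never between genes. A count of 3 in 1 library equals 0.193 to 0.244 CPM, and over both libraries of a tissue 0.116 CPM in rumen, 0.103 CPM in liver and 0.115 CPM in forebrain. These floors cover counting error only. The liver pair differed most between its libraries: the Pearson correlation of log2 CPM across 11214 genes was 0.980 in rumen, 0.918 in liver and 0.986 in forebrain, over genes, which are not independent replicates. Of the members with at least 10 counts in both libraries of a tissue, 4 of 35 differed more than 2-fold between the rumen libraries, 11 of 29 between the liver libraries and 3 of 37 between the forebrain libraries.

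Each tissue carried the markers of its label. Hepatocyte markers (9 of 10 in the table) summed to 71.1 and 78.8 CPM in rumen, 206601 and 241740 CPM in liver and 104 and 137 CPM in forebrain. Erythroid markers (10 of 10) summed to 148386 CPM in Liver 1 and 55856 CPM in Liver 2, against 457 to 547 CPM in the other 4 libraries. Markers of stratified squamous epithelium (10 of 11) summed to 11930.2 and 14605 CPM in rumen, 85.7 and 183 CPM in liver and 6.79 and 7.81 CPM in forebrain. Those of neurons (11 of 12) summed to 513 and 553 CPM in rumen, 64.7 and 86.0 CPM in liver and 13520.1 and 13858 CPM in forebrain. In bulk tissue, fewer cells of a type and less RNA per cell cannot be told apart.

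Of the 45 members, 40 passed the filter on low counts and were tested. HAND1 had 0 counts in all 6 libraries. Of the others that did not pass, ATOH1, a factor of secretory gut cells and cerebellar neurons, had 4 and 8 counts in Rumen 1 and 2 and 0 elsewhere. NEUROG3, a factor of endocrine progenitors, had 9 counts in Rumen 1 and 0 elsewhere. NEUROG2, a proneural factor, had 1 and 3 counts in forebrain and 0 elsewhere, and KLF9, a target of glucocorticoid receptor, had 0 counts in rumen, 4 and 0 in Liver 1 and 2, and 6 and 3 in Forebrain 1 and 2. The 5 were left at those values. All members together took 0.216% and 0.223% of the counts of Rumen 1 and 2, 0.0696% and 0.0618% of those of Liver 1 and 2 and 0.0705% and 0.0601% of those of Forebrain 1 and 2. Without KLF5 the shares were 0.109% and 0.108% in rumen, 0.0695% and 0.0617% in liver and 0.0696% and 0.0594% in forebrain.

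In rumen against forebrain, 22 of the 40 tested members passed edgeR's quasi-likelihood test at an adjusted p of at most 0.05, where 39.3% of all 11478 tested genes did. Higher in rumen were 15 members (19.5% of all genes were) and lower were 7 (19.9% of all genes were). The higher ones included KLF5, KLF4, TWIST1, TWIST2, BHLHE40 and HES1, and the lower ones HES5, HES6, HEY1 and the neuronal factors NEUROD2, NEUROD6 and NHLH2. The median log2 fold change was 1.13 over the tested members and -0.01 over all tested genes. Both counts fell when a Rumen or Forebrain library was left out and rose when a Liver library was left out. The calls among all genes moved in the same way.

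Against liver, 15 of the 40 passed, a share below the 40.3% of all genes, so the number of calls is no result about the members. They were 10 higher in rumen (20.1% of all genes were), among them KLF5, KLF4, HES1, BHLHE40, TWIST1 and TWIST2, and 5 lower (20.3% of all genes were), which were KLF15, TCF3, BHLHE41, MYC and HEY2. The median log2 fold change was 0.32 over the members and -0.06 over all genes. Scaling to total counts only gave 11 higher and 3 lower. The lower members were fewer without a Rumen or Forebrain library and more without Liver 2, as were the lower calls among all genes.

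In liver against forebrain, 25 of the 40 passed, where 55.3% of all genes did. Liver was higher in 13 (29.4% of all genes were), led by MXD3, TCF3, KLF15 and ID1, and lower in 12 (25.9% of all genes were), led by HES5, HES6, KLF5 and NEUROD6. The median log2 fold change was 0.44 over the members and 0.14 over all genes. Both numbers fell when either Forebrain library was left out, and so did the calls among all genes. The 3 comparisons share libraries pairwise, so their counts are not independent of each other.

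**Figure D1:**
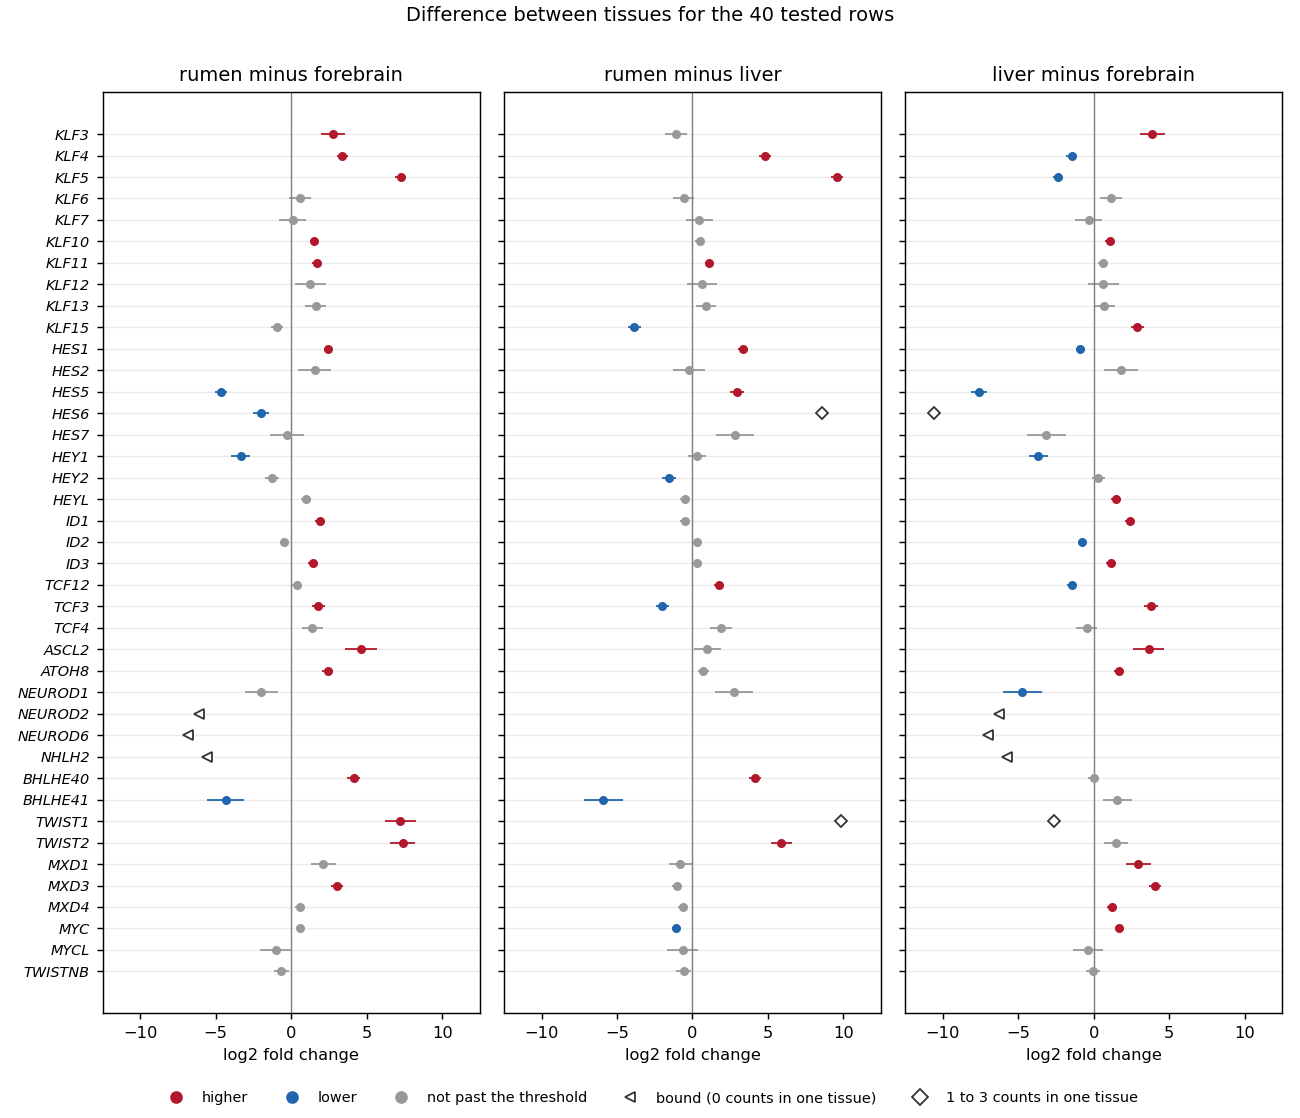
Log2 fold change (edgeR, horizontal axes, with its SE as a bar) of the 40 tested members for each pair of tissues (rumen minus forebrain, then rumen minus liver, then liver over forebrain), coloured by whether the adjusted p was at most 0.05. Open triangles are bounds where 1 tissue had 0 counts, open diamonds mark a tissue with 1 to 3 counts, and members with 0 counts in both tissues are left out. KLF5 lies far to the right in both rumen panels, and HES5 lies left of 0 against forebrain and right of 0 in rumen minus liver.

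Among the KLF genes, rumen stood out in KLF5 and KLF4. KLF5, an activator of growth in basal and gut epithelium, stood at 1062 and 1069 CPM in Rumen 1 and 2, 0.968 and 1.73 CPM in Liver 1 and 2 and 7.73 and 6.21 CPM in Forebrain 1 and 2. The 3 tissues did not overlap, and the liver was lowest. The log2 fold change was 7.26 ± 0.36 (SE, edgeR adjusted p = 0.000251) in rumen minus forebrain, 9.60 ± 0.40 (SE, edgeR adjusted p = 0.000222) in rumen minus liver and -2.34 ± 0.33 (SE, edgeR adjusted p = 0.00148) in liver minus forebrain. KLF4, which drives the barrier function of stratified epithelium, stood at 57.6 and 39.2 CPM in rumen, 1.64 and 1.73 CPM in liver and 4.96 and 4.26 CPM in forebrain, in the same order of tissues. Its log2 fold change was 3.39 ± 0.37 (SE, edgeR adjusted p = 0.00104) in rumen minus forebrain and 4.83 ± 0.40 (SE, edgeR adjusted p = 0.000383) in rumen minus liver. In liver minus forebrain it was -1.44 ± 0.37 (SE, edgeR adjusted p = 0.0160), a call lost without either Forebrain library (adjusted p from 0.0608 to 0.0875), under limma-voom and with only these 2 tissues in the fit. All 9 tested markers of stratified squamous epithelium were higher in rumen than in liver and than in forebrain, and their part in these results was not tested. KRT6A, TP63 and IVL had 0 counts in liver, and KRT6A, TP63, IVL, KRT14, KRT15 and DSG3 had 0 counts in forebrain.

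KLF10 and KLF11, TGF-beta-inducible repressors, were also highest in rumen. KLF11 stood at 71.3 and 59.5 CPM in rumen, 29.6 and 31.5 CPM in liver and 24.3 and 16.2 CPM in forebrain, without overlap. It was 3.22-fold higher in rumen than in forebrain (edgeR adjusted p = 0.00573) and 2.14-fold higher than in liver (edgeR adjusted p = 0.0241). The first call was lost without Rumen 1 or Forebrain 2 (edgeR adjusted p = 0.0546 and 0.0563) and the other without either Rumen library (adjusted p from 0.0851 to 0.152). KLF10 stood at 70.3 and 56.4 CPM in rumen, 53.8 and 37.6 CPM in liver and 24.5 and 19.1 CPM in forebrain. Both rumen and liver lay above forebrain, 2.91-fold for rumen (edgeR adjusted p = 0.00855) and 2.096-fold for liver (edgeR adjusted p = 0.0217), and rumen minus liver did not pass (edgeR adjusted p = 0.240). The KLF10 calls were lost without Rumen 1 or either Forebrain library (adjusted p from 0.0521 to 0.0832 for rumen, from 0.0519 to 0.155 for liver). The call in liver minus forebrain was lost also with total counts as the scale and with only these 2 tissues in the fit.

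KLF15 and KLF3 had their highest mean in liver. KLF15, a regulator of gluconeogenesis and amino acid breakdown, stood at 3.83 and 5.62 CPM in rumen, 49.1 and 86.8 CPM in Liver 1 and 2 and 9.92 and 8.30 CPM in forebrain. Liver was higher than forebrain by a log2 fold change of 2.90 ± 0.40 (SE, edgeR adjusted p = 0.00140), and rumen minus liver was -3.84 ± 0.42 (SE, edgeR adjusted p = 0.000909). All 9 tested hepatocyte markers were also lower in rumen and in forebrain than in liver. APOA2 and TF had 0 counts in rumen, and APOA2, AFP, AHSG and SERPINA1 had 0 in forebrain. Within liver the hepatocyte sum was higher in Liver 1 (241740 CPM) than in Liver 2 (206601 CPM), and KLF15 was lower in Liver 1. The part of hepatocytes in the KLF15 level was not tested. KLF3, a repressor with known targets in erythroid cells, stood at 12.4 and 19.1 CPM in rumen, 56.5 CPM in Liver 1, 11.1 CPM in Liver 2 and 2.11 and 2.45 CPM in forebrain. Rumen and liver overlapped, and forebrain lay below both. For KLF3 the log2 fold change was 2.78 ± 0.79 in rumen minus forebrain (SE, edgeR adjusted p = 0.0321) and 3.88 ± 0.82 in liver minus forebrain (SE, edgeR adjusted p = 0.00767). The rumen call was lost without any 1 of the Rumen and Forebrain libraries (adjusted p from 0.0813 to 0.164) and under limma-voom. The liver call was lost without either Forebrain library (adjusted p = 0.0548 and 0.0605) and under limma-voom, and its log2 fold change was 2.27 without Liver 1 and 4.62 without Liver 2.

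KLF6, KLF7, KLF12 and KLF13 passed in no comparison. KLF6, an early-response factor, stood at 8.04 and 7.88 CPM in rumen, 18.1 and 5.53 CPM in liver and 7.48 and 3.176 CPM in forebrain. KLF13, KLF12 and KLF7 stayed between 0.385 and 5.15 CPM in all 6 libraries. In the whole KLF group of 10 tested members, 5 passed in rumen against forebrain, each of them higher in rumen, where 19.5% of all genes were higher. Against liver 3 were higher and 1 lower in rumen, and in liver against forebrain 3 were higher and 2 lower. These shares are near the 40.3% and under the 55.3% of all genes called in the same comparisons.

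**Figure D2:**
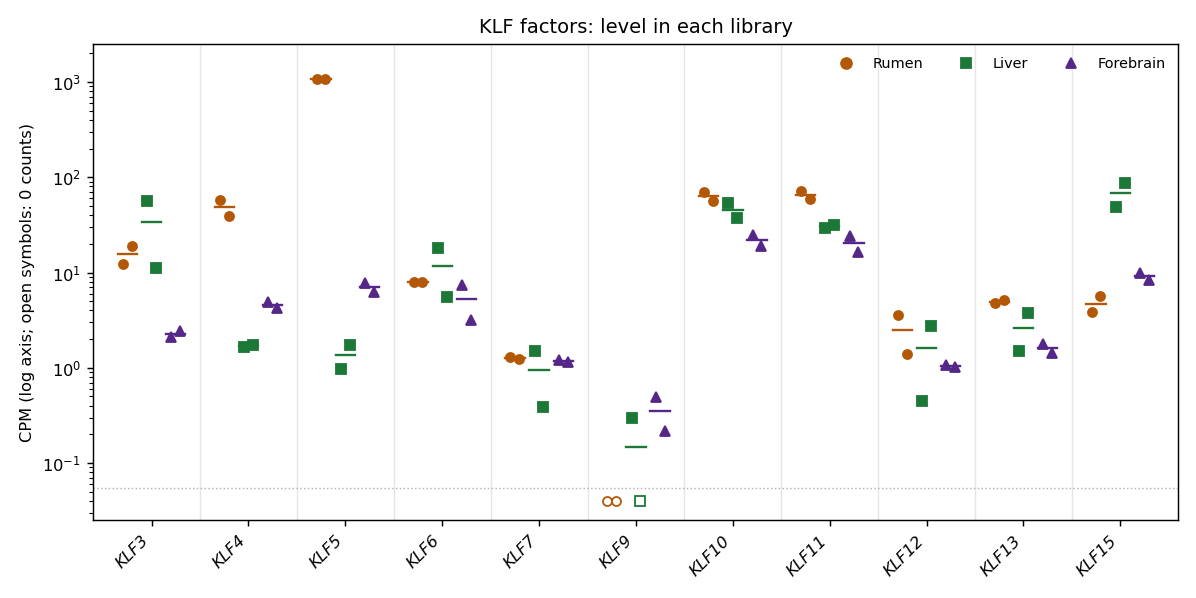
Level in CPM (vertical log axis) of the 11 KLF members in each library, with rumen as circles, liver as squares and forebrain as triangles, lines at the tissue means and open symbols for 0 counts. KLF5 lies at 1062 and 1069 CPM in rumen and under 8 CPM elsewhere, and the 2 liver points of KLF3 lie wide apart.

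The HES and HEY repressors split by tissue. HES1, a Notch effector of many progenitor tissues, stood at 86.9 and 88.6 CPM in rumen, 7.60 and 9.89 CPM in liver and 13.8 and 18.6 CPM in forebrain. Rumen was 5.40-fold above forebrain (edgeR adjusted p = 0.00141) and 10.02-fold above liver (edgeR adjusted p = 0.000510). HES5, the Notch effector of neural progenitors, went the other way against forebrain, at 1.38 and 1.41 CPM in rumen, 0.149 and 0.193 CPM in liver and 35.1 and 35.3 CPM in forebrain. The log2 fold change of HES5 was -4.65 ± 0.42 in rumen minus forebrain (SE, edgeR adjusted p = 0.000579) and -7.60 ± 0.51 in liver minus forebrain (SE, edgeR adjusted p = 9.83e-05). Rumen was 7.73-fold above liver in HES5 (edgeR adjusted p = 0.00468, and 0.0678 with only these 2 tissues in the fit), on 18 and 18 counts in rumen and 2 and 3 in liver. HES1 was highest in rumen and HES5 in forebrain, and in neither gene did the libraries of any 2 tissues overlap.

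HES6, which in mouse opposes HES1 and promotes neuronal differentiation, stood at 24.3 and 9.05 CPM in Rumen 1 and 2 and 71.1 and 63.3 CPM in forebrain, with 1 count in Liver 1 and 0 in Liver 2. It was 4.03-fold lower in rumen than in forebrain (edgeR adjusted p = 0.0238), a call lost without Rumen 2 or either Forebrain library (adjusted p from 0.112 to 0.138), and its log2 fold change was -2.89 without Rumen 1. Against the single liver count the pooled level was 485-fold higher in rumen (exact 95% interval 86.6 to 19207, counting error only), and liver stood below forebrain by a ratio of 1942 (exact 95% interval 348 to 76735). Both differences passed (edgeR adjusted p = 0.000845 and 0.000231). The fitted log2 fold change, which depends on the prior count, was 8.57 in rumen minus liver (7.69 without Rumen 1, 10.8 without Liver 1, 7.63 without Liver 2) and -10.6 in liver minus forebrain (-12.8 without Liver 1, -9.65 without Liver 2). HEY1, a Notch target of vessels and neural progenitors, stood at 1.301 and 1.17 CPM in rumen, 1.34 and 0.642 CPM in liver and 13.7 and 11.6 CPM in forebrain. It was 10.2-fold lower in rumen (edgeR adjusted p = 0.00701) and 12.8-fold lower in liver (edgeR adjusted p = 0.00335) than in forebrain. The rumen call was lost without any 1 of the Rumen and Forebrain libraries (adjusted p from 0.0550 to 0.0779), and the liver log2 fold change was -4.29 without Liver 1.

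HEYL and HEY2, Notch targets of smooth muscle and of heart and arteries, had their highest mean in liver. HEYL stood at 20.1 and 15.9 CPM in rumen, 28.7 and 22.4 CPM in liver and 7.97 and 10.2 CPM in forebrain, and liver was 2.81-fold above forebrain (edgeR adjusted p = 0.0112, lost without either Forebrain library at adjusted p = 0.0585 and 0.0969). HEY2 stood at 3.44 and 3.75 CPM in rumen, 11.6 and 9.70 CPM in liver and 7.32 and 10.03 CPM in forebrain, where liver and forebrain overlapped. Rumen was 2.96-fold below liver in HEY2 (edgeR adjusted p = 0.0344). That call was lost without any 1 of the Rumen and Forebrain libraries (adjusted p from 0.0878 to 0.156), with total counts as the scale and with only these 2 tissues in the fit. HES1 was also 1.85-fold lower in liver than in forebrain (edgeR adjusted p = 0.0342), a call lost without any 1 of the Rumen and Forebrain libraries (adjusted p from 0.0711 to 0.226), under limma-voom and with only these 2 tissues in the fit. HES7, a segmentation clock gene, stood at 3.37 and 3.36 CPM in rumen, 0 and 0.899 CPM in liver and 4.88 and 3.32 CPM in forebrain. By the fit used here HES7 passed in no comparison (edgeR adjusted p = 0.0752 in liver minus forebrain). Liver minus forebrain passed for HES7 with total counts as the scale, under DESeq2 and under limma-voom, and rumen minus liver passed under limma-voom. HES2, also without a call, differed within tissues, at 8.65 and 0.781 CPM in Rumen 1 and 2 and 7.82 and 3.40 CPM in Liver 1 and 2, against 1.38 and 1.80 CPM in forebrain.

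Of the Notch pathway list, 26 of 40 genes were in the table and tested. In rumen against forebrain 4 were higher and 4 lower (19.5% and 19.9% of all genes), in rumen against liver 8 were higher and 5 lower (20.1% and 20.3% of all genes), and in liver against forebrain 7 were higher and 7 lower (29.4% and 25.9% of all genes). Against forebrain in rumen the Notch counts became 1 higher without Rumen 1, Rumen 2 or Forebrain 1, 2 lower without Rumen 2 or either Forebrain library, and 9 higher and 8 lower when 1 of the Liver libraries was left out. Against liver they became 5 higher and 2 lower without 1 of the Rumen libraries, 3 lower without 1 of the Forebrain libraries and 8 lower without Liver 1. In liver against forebrain they became 1 higher without 1 of the Forebrain libraries, 4 lower without Forebrain 2 and 11 lower without Liver 1. With total counts as the scale 3 were lower in rumen than in liver and 3 higher in liver than in forebrain. The ligand JAG1 stood at 221 ± 18.97 CPM in rumen, 32.4 ± 13.4 CPM in liver and 78.1 ± 12.9 CPM in forebrain (SD, n = 2 each), and rumen was above both (edgeR adjusted p = 0.0135 against forebrain, 0.00155 against liver). The JAG1 call against forebrain was lost without any 1 of the Rumen and Forebrain libraries (edgeR adjusted p from 0.0649 to 0.110). NUMB, an inhibitor of Notch receptors, was 4.17-fold higher in rumen than in forebrain at 86.7 ± 7.92 against 20.8 ± 1.44 CPM (SD, n = 2, edgeR adjusted p = 0.00300). The Deltex gene DTX1, itself a Notch target, averaged 10.4 ± 3.41 CPM in rumen, 1.48 ± 0.544 CPM in liver and 82.2 ± 6.60 CPM in forebrain (SD, n = 2 each). LFNG, a glycosyltransferase that modifies Notch receptors, was 7.50-fold lower in liver than in forebrain at 5.65 ± 1.27 against 42.4 ± 1.56 CPM (SD, n = 2, edgeR adjusted p = 0.000489). DTX1 was lower in rumen (edgeR adjusted p = 0.00177) and in liver (edgeR adjusted p = 0.000147) than in forebrain. A link between the genes of this list and the HES and HEY levels was not tested. Radial glia markers (7 of 7) summed to 1569 and 1569 CPM in rumen, 155 and 224 CPM in liver and 1544 and 2127 CPM in forebrain. PAX6 had 0 counts in rumen, SOX2 and PAX6 had 0 in liver, 2 markers were higher and 4 lower in rumen than in forebrain, and all 7 were lower in liver than in forebrain. Endothelial markers (10 of 10, none at 0 counts in any tissue) summed to 330.3 and 388 CPM in rumen, 1097 CPM in Liver 1, 518 CPM in Liver 2 and 218 and 295 CPM in forebrain. The part of these cells in the HES and HEY levels was not tested.

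**Figure D3:**
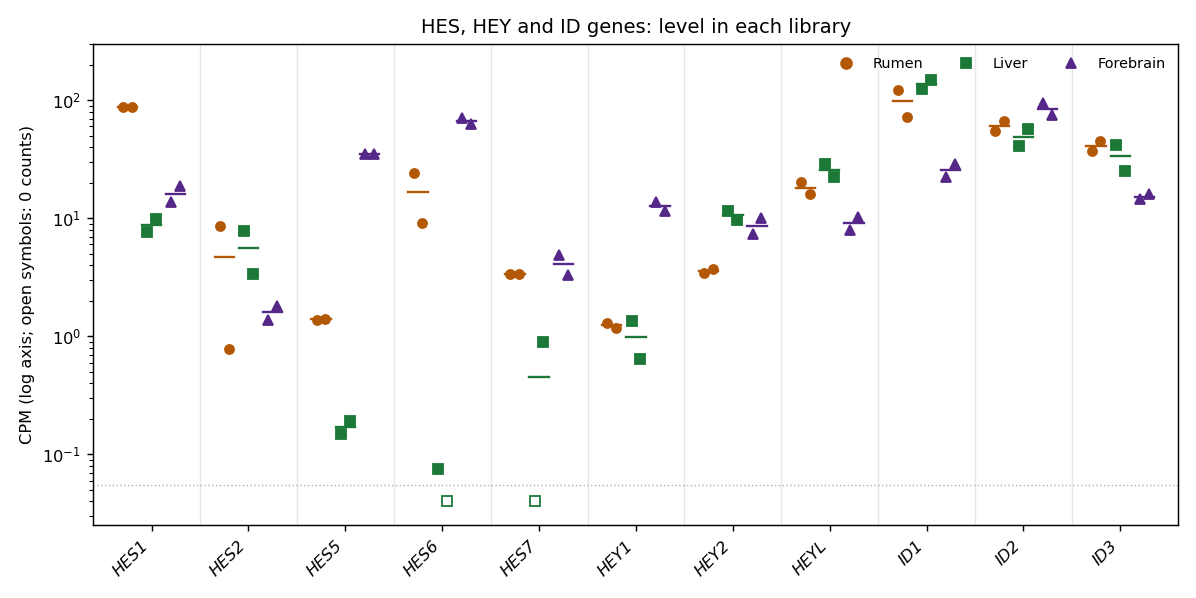
Level in CPM (vertical log axis) of the 11 HES, HEY and ID members in each library, with rumen as circles, liver as squares and forebrain as triangles, lines at the tissue means (means under 0.06 CPM are not drawn) and open symbols for 0 counts. HES1 is highest in rumen, while HES5, HES6 and HEY1 are highest in forebrain and ID1 and ID3 are lowest there.

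Of the ID genes, ID1 and ID3 were higher in rumen and liver than in forebrain. ID1, a direct target of BMP signalling, stood at 123 and 72.2 CPM in rumen, 124 and 150 CPM in liver and 22.2 and 28.9 CPM in forebrain. Its log2 fold change was 1.94 ± 0.33 in rumen minus forebrain (SE, edgeR adjusted p = 0.00541, and 0.0593 without Forebrain 1) and 2.42 ± 0.33 in liver minus forebrain (SE, edgeR adjusted p = 0.00144). ID3 stood at 37.5 and 44.9 CPM in rumen, 41.9 and 25.1 CPM in liver and 14.5 and 16.03 CPM in forebrain. The difference from forebrain was 2.70-fold in rumen (edgeR adjusted p = 0.0162) and 2.196-fold in liver (edgeR adjusted p = 0.0260), and both calls were lost without any 1 of the Rumen and Forebrain libraries (adjusted p from 0.0681 to 0.120 in rumen, from 0.0595 to 0.149 in liver). The liver call was lost also with total counts as the scale and with only these 2 tissues in the fit.

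ID2 had its highest mean in forebrain, at 54.5 and 67.1 CPM in rumen, 40.7 and 56.7 CPM in liver and 95.2 and 74.4 CPM in forebrain. Rumen and liver overlapped in ID2. In liver it was 1.74-fold lower than in forebrain (edgeR adjusted p = 0.0461). The ID2 call was lost without any 1 of the Rumen and Forebrain libraries (adjusted p from 0.0858 to 0.258) and with only these 2 tissues in the fit, and rumen minus forebrain did not pass (edgeR adjusted p = 0.210). No ID gene passed in rumen minus liver by edgeR, DESeq2 or limma-voom, where the smallest unadjusted p by edgeR was 0.173, and ID3 passed there only when Liver 1 was left out. Of the BMP pathway list, 16 of 21 genes were tested, and 5 were higher and 1 lower in rumen than in forebrain (19.5% and 19.9% of all genes), 7 higher and 2 lower in rumen than in liver (20.1% and 20.3% of all genes), and 4 higher and 5 lower in liver than in forebrain (29.4% and 25.9% of all genes). Against forebrain in rumen, 3 were higher and 0 lower without any 1 of the Rumen and Forebrain libraries, and 7 were higher and 4 lower without either Liver library. In rumen against liver 1 was lower without Rumen 1. The inhibitor SMAD6 stood at 18.5 ± 5.50 CPM in rumen, 94.0 ± 40.3 CPM in liver and 1.97 ± 0.483 CPM in forebrain (SD, n = 2 each), and the ligand BMP4 at 62.9 ± 1.86, 29.3 ± 15.1 and 1.80 ± 0.0977 CPM in the same tissues (SD, n = 2 each). Both were higher in rumen (edgeR adjusted p = 0.00265 and 0.000620) and in liver (edgeR adjusted p = 0.000251 and 0.000628) than in forebrain, and the log2 fold change of BMP4 in liver was 3.36 without Liver 2. Other genes of the list ran the other way. The receptor-activated factors SMAD1 and SMAD5 and the receptor ACVR2A were lower in liver than in forebrain (edgeR adjusted p = 0.000363, 0.000818 and 0.000847). SMAD1 was 5.04-fold lower, SMAD5 3.65-fold lower, and ACVR2A averaged 9.36 ± 4.29 CPM in liver against 75.2 ± 3.68 CPM in forebrain (SD, n = 2). The pseudoreceptor BAMBI was 2.79-fold lower in rumen than in forebrain (edgeR adjusted p = 0.0181), a call lost without any 1 of the Rumen and Forebrain libraries (adjusted p from 0.0585 to 0.129) and under limma-voom.

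The E proteins, partners of the proneural and mesodermal bHLH factors, differed between tissues gene by gene. TCF3, the source of E12 and E47, stood at 21.3 and 20.4 CPM in rumen, 114 CPM in Liver 1, 51.8 CPM in Liver 2 and 6.59 and 5.34 CPM in forebrain, with no overlap. The log2 fold change was 1.80 ± 0.42 in rumen minus forebrain (SE, edgeR adjusted p = 0.0164), -1.99 ± 0.41 in rumen minus liver (SE, edgeR adjusted p = 0.0103) and 3.80 ± 0.45 in liver minus forebrain (SE, edgeR adjusted p = 0.000737). The first call was lost without any 1 of the Rumen and Forebrain libraries (adjusted p from 0.0725 to 0.117) and under limma-voom, and the second without either Rumen library (adjusted p = 0.0759 and 0.0840). Without Liver 1 the log2 fold changes were -1.31 in rumen minus liver and 3.12 in liver minus forebrain. TCF12, also called HEB, was lowest in liver, at 124 and 129 CPM in rumen, 48.6 and 25.4 CPM in liver and 104 and 93.6 CPM in forebrain. Rumen was 3.41-fold above liver (edgeR adjusted p = 0.00760, and 0.0502 without Rumen 2), and liver 2.67-fold below forebrain (edgeR adjusted p = 0.0119, lost without either Forebrain library at adjusted p = 0.0548 and 0.0717). In RefSeq the genes TCF12, TCF4, HES6, HES7, KLF6 and KLF9 each overlap another annotated gene. The sources used here do not give the strand setting of the counting, and without strand the reads of 2 overlapping genes cannot be told apart. TCF4, or E2-2, stood at 5.74 and 8.98 CPM in rumen, 2.98 and 1.03 CPM in liver and 2.36 and 3.176 CPM in forebrain and did not pass. Rumen minus liver (edgeR adjusted p = 0.0788) passed for TCF4 with total counts as the scale, under DESeq2 and under limma-voom. Rumen minus forebrain passed for TCF4 with only these 2 tissues in the fit. All 10 erythroid markers were lower in rumen and in forebrain than in liver, with EPB42 and GATA1 at 0 counts in rumen. Their sum was higher in Liver 1 than in Liver 2. Of the 11 members over 2-fold apart between the liver libraries, TCF3, KLF3, ASCL2, MXD1, KLF6, TCF4, HES2 and HEY1 were higher in Liver 1. BHLHE40, BHLHE41 and KLF13 were higher in Liver 2. Macrophage markers summed to 1059 CPM in Liver 1 and 457 CPM in Liver 2, and endothelial markers to 1097 and 518 CPM. The part of these cells was not tested.

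Neuronal members were read mainly in forebrain. NEUROD6, a factor of young cortical projection neurons, stood at 13.8 and 13.2 CPM in forebrain, NEUROD2, its relative in the same cells, at 8.62 and 7.29 CPM, and NHLH2, a factor of hypothalamic neurons, at 3.99 and 7.15 CPM. All 3 had 0 counts in the 4 rumen and liver libraries. NEUROD6 was at least 116-fold lower in rumen and at least 130.5-fold lower in liver than in forebrain. NEUROD2 was at least 68.3-fold and 76.5-fold lower, and NHLH2 at least 48.8-fold and 54.7-fold lower, in rumen and in liver. These bounds set the pooled forebrain level against 3 counts over both libraries of the other tissue. The 3 passed in both comparisons, with edgeR adjusted p from 0.00206 to 0.0105. In rumen minus forebrain NEUROD2 lost its call without either Forebrain library (edgeR adjusted p from 0.0644 to 0.0752) and so did NHLH2 (adjusted p from 0.0768 to 0.120), and in liver minus forebrain NHLH2 lost it without Forebrain 2 (adjusted p = 0.0825). These 3 passed the filter on low counts through forebrain alone.

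NEUROD1, a factor of neurons and endocrine cells, was not confined to forebrain: it stood at 1.91 and 0.859 CPM in rumen, 0 and 0.385 CPM in liver and 3.50 and 7.58 CPM in forebrain. It passed only in liver minus forebrain (26.6-fold lower, edgeR adjusted p = 0.0205), on 6 liver counts, all in Liver 2, and the call was lost without either Forebrain library (adjusted p = 0.0655 and 0.148). Its log2 fold change there was -3.82 without Liver 1, -9.19 without Liver 2 and -4.08 without Forebrain 2. Of the 11 tested neuron markers, 10 were lower in rumen and 11 lower in liver than in forebrain. SLC17A6, GAD1 and GAD2 had 0 counts in rumen, and TUBB3, ELAVL4, DCX, SLC17A6 and GAD1 had 0 in liver. Enteric neuron and glia markers (6 of 7) summed to 182 and 190.0 CPM in rumen, 4.24 and 5.20 CPM in liver and 781 and 1024 CPM in forebrain, where PHOX2A had 0 counts, and in liver PHOX2A, SOX10 and ELAVL4 had 0. Of the 6, 1 was higher and 3 lower in rumen than in forebrain, 5 passed as higher in rumen than in liver, and 5 passed as lower in liver than in forebrain. The part of these cells in the NEUROD1 and HES6 counts of rumen was not tested.

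The achaete-scute and atonal relatives ASCL2 and ATOH8 were higher outside forebrain. ASCL2, a WNT target of gut stem cells and trophoblast, stood at 16.8 and 16.6 CPM in rumen, 14.4 CPM in Liver 1, 2.57 CPM in Liver 2 and 0.244 and 1.08 CPM in forebrain. It was higher than forebrain in rumen (log2 fold change 4.62 ± 1.06 SE, edgeR adjusted p = 0.0157) and in liver (3.63 ± 1.03 SE, edgeR adjusted p = 0.0234). Both calls were lost without any 1 of the Rumen and Forebrain libraries (adjusted p from 0.0502 to 0.0980 in rumen, from 0.0502 to 0.123 in liver), and the liver call also under limma-voom and with only these 2 tissues in the fit. The log2 fold change was 3.96 without Forebrain 1 and 6.08 without Forebrain 2 in rumen, and in liver 1.90 without Liver 1, 4.38 without Liver 2, 2.95 without Forebrain 1 and 5.07 without Forebrain 2. ATOH8, a factor with known roles in liver and endothelium, stood at 27.5 and 21.5 CPM in rumen, 14.1 and 15.5 CPM in liver and 4.80 and 4.40 CPM in forebrain, without overlap. Rumen was 5.31-fold above forebrain (edgeR adjusted p = 0.00331), and liver 3.21-fold (edgeR adjusted p = 0.00763, lost without either Forebrain library at adjusted p = 0.0568 and 0.0689). Rumen minus liver did not pass (edgeR adjusted p = 0.134).

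The TWIST genes, factors of mesenchyme, were read almost entirely in rumen. TWIST1 and TWIST2 passed the filter on low counts only because of their rumen libraries. TWIST2 stood at 53.5 and 63.1 CPM in rumen, 0.298 and 1.61 CPM in liver and 0.244 and 0.433 CPM in forebrain. Its log2 fold change was 7.37 ± 0.81 in rumen minus forebrain (SE, edgeR adjusted p = 0.00108) and 5.90 ± 0.73 in rumen minus liver (SE, edgeR adjusted p = 0.00147), the second being 5.17 without Liver 1 and 7.57 without Liver 2. TWIST1 stood at 39.8 and 41.3 CPM in rumen, with 1 count in Liver 1, 0 in Liver 2, 0 in Forebrain 1 and 7 in Forebrain 2. Against forebrain its log2 fold change was 7.22 ± 1.01 (SE, edgeR adjusted p = 0.00262), 6.32 without Forebrain 1 and 12.1 without Forebrain 2. Against the single liver count the ratio was 1175 (exact 95% interval 211 to 46470.2, counting error only, edgeR adjusted p = 0.00158), and the fitted log2 fold change of 9.85 was 12.1 without Liver 1 and 8.92 without Liver 2. Fibroblast markers (8 of 8, none at 0 counts in any tissue) summed to 16504 and 17111 CPM in rumen, 1063 and 1385 CPM in liver and 86.5 and 142 CPM in forebrain. Of them 7 were higher in rumen than in forebrain, and 7 higher and 1 lower in rumen than in liver. Smooth muscle markers (10 of 10, none at 0 counts in any tissue) summed to 9971 and 10585 CPM in rumen, 292 and 382 CPM in liver and 56.8 and 82.9 CPM in forebrain, with 10 of 10 higher in rumen than in forebrain and 8 of 10 higher than in liver. The part of both cell types was not tested.

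BHLHE40 and BHLHE41, also called DEC1 and DEC2, are related repressors of the circadian clock. Rumen was highest in BHLHE40 and lowest in BHLHE41, and liver minus forebrain passed in neither (edgeR adjusted p = 0.996 and 0.209). BHLHE40 stood at 98.2 and 117 CPM in rumen, 4.02 and 8.29 CPM in liver and 6.10 and 6.21 CPM in forebrain, where liver and forebrain overlapped. Rumen was 17.5-fold above forebrain (edgeR adjusted p = 0.000763) and 17.4-fold above liver (edgeR adjusted p = 0.000671), with a log2 fold change against liver of 4.74 without Liver 2. BHLHE41 had 4 counts in Rumen 1 and 0 in Rumen 2, or 0.306 and 0 CPM, against 4.17 and 15.2 CPM in liver and 3.74 and 2.82 CPM in forebrain. The log2 fold change of BHLHE41 was -4.33 ± 1.23 in rumen minus forebrain (SE, edgeR adjusted p = 0.0323) and -5.90 ± 1.26 in rumen minus liver (SE, edgeR adjusted p = 0.0120). The call against forebrain was lost without Rumen 2 or either Forebrain library (edgeR adjusted p from 0.103 to 0.130), and that against liver without Rumen 2 (adjusted p = 0.0562). Against forebrain the value was -8.48 without Rumen 1 and -3.35 without Rumen 2. Against liver it was -10.04 without Rumen 1, -4.92 without Rumen 2, -6.54 without Liver 1 and -4.67 without Liver 2.

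**Figure D4:**
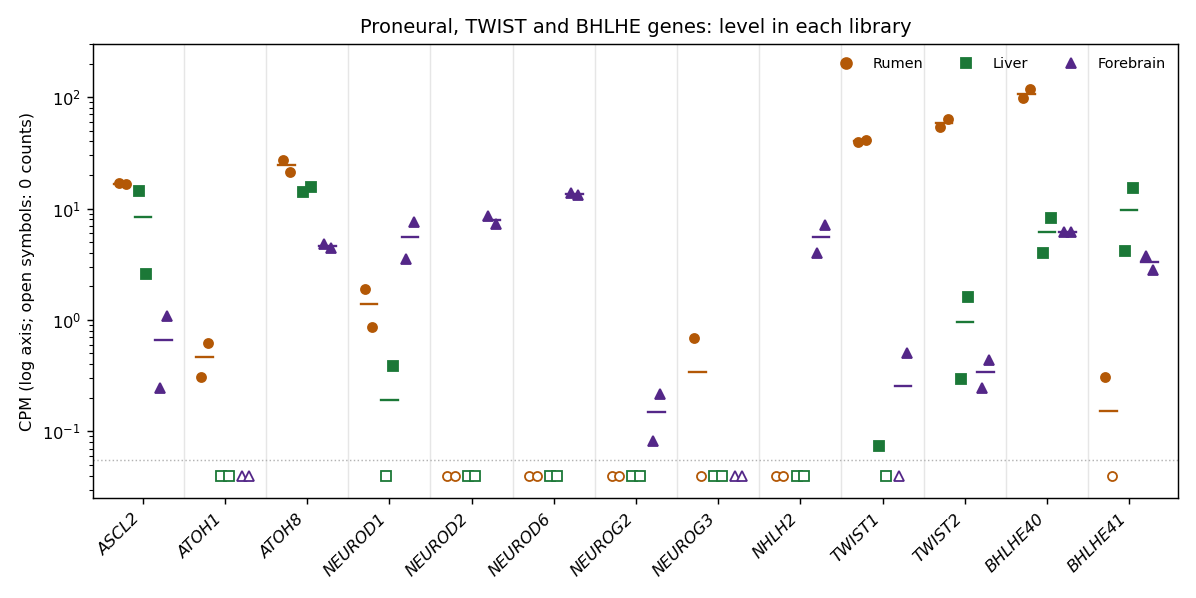
Level in CPM (vertical log axis) of the 13 proneural, neuronal, TWIST and BHLHE members with a count, in each library, with rumen as circles, liver as squares and forebrain as triangles, lines at the tissue means (means under 0.06 CPM are not drawn) and open symbols for 0 counts. NEUROD2, NEUROD6 and NHLH2 have closed symbols in forebrain only, and TWIST1, TWIST2 and BHLHE40 lie highest in rumen.

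In the MYC network, MYC and the 3 MXD genes had their highest mean in liver. MYC stood at 35.4 and 32.7 CPM in rumen, 83.6 and 62.7 CPM in liver and 26.4 and 19.6 CPM in forebrain, without overlap. Liver was above forebrain by a log2 fold change of 1.67 ± 0.28 (SE, edgeR adjusted p = 0.00327), and rumen was 2.15-fold below liver (edgeR adjusted p = 0.0213). The call in rumen minus liver was lost without any 1 of the Rumen and Forebrain libraries (adjusted p from 0.0509 to 0.146) and with total counts as the scale. MXD3, a MAX partner with known expression in cycling cells, stood at 22.5 and 22.8 CPM in rumen, 36.3 and 56.1 CPM in liver and 3.25 and 2.24 CPM in forebrain. Its log2 fold change was 3.04 ± 0.38 in rumen minus forebrain (SE, edgeR adjusted p = 0.00169) and 4.07 ± 0.39 in liver minus forebrain (SE, edgeR adjusted p = 0.000343). Rumen minus liver just missed the threshold (edgeR adjusted p = 0.0523), and MXD3 passed there under DESeq2, under limma-voom and with at least 5 CPM in 2 libraries.

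MXD1 and MXD4, which oppose MYC in differentiating cells, passed in liver minus forebrain only. In rumen minus forebrain (edgeR adjusted p = 0.0794) MXD1 passed under DESeq2 and with only these 2 tissues in the fit. MXD1 stood at 5.59 and 6.63 CPM in rumen, 17.1 CPM in Liver 1, 4.56 CPM in Liver 2 and 0.813 and 1.95 CPM in forebrain. Liver was 7.73-fold above forebrain in MXD1 (edgeR adjusted p = 0.0226). The MXD1 call was lost without either Forebrain library (adjusted p = 0.0645 and 0.136) and under limma-voom, and its log2 fold change was 1.70 without Liver 1, 3.60 without Liver 2 and 3.72 without Forebrain 2. MXD4 stood at 15.1 and 13.0 CPM in rumen, 24.7 and 18.2 CPM in liver and 9.60 and 8.95 CPM in forebrain, and liver was 2.31-fold above forebrain (edgeR adjusted p = 0.0259). The MXD4 call was lost without any 1 of the Rumen and Forebrain libraries (adjusted p from 0.0550 to 0.153), with total counts as the scale and with only these 2 tissues in the fit. MYCL stayed between 0.230 and 2.36 CPM in all 6 libraries and TWISTNB between 6.74 and 15.9 CPM, and neither passed in any comparison.

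Of 16 listed partners of the MYC network, 13 were tested. In rumen 3 were higher and 2 lower than in forebrain (19.5% and 19.9% of all genes). Against liver 7 passed, each of them lower in rumen (20.3% of all genes were), and in liver against forebrain 7 passed, each of them higher in liver (29.4% of all genes were). The 3 higher ones became 0 without Forebrain 2, 1 without Rumen 2 and 7 when 1 of the Liver libraries was left out. The 2 lower ones became 0 without Rumen 2, 1 without Rumen 1 or Forebrain 1 and 4 without either Liver library. The 7 against liver became 3 without Rumen 1, 4 without Rumen 2 or either Forebrain library and 4 with total counts as the scale or with only these 2 tissues in the fit. The 7 in liver against forebrain became 3 without Forebrain 2. MXI1, a further MAX partner of the MXD kind, stood at 25.4 ± 1.34 CPM in rumen, 68.1 ± 8.85 CPM in liver and 62.5 ± 8.41 CPM in forebrain (SD, n = 2 each), lower in rumen than in both (edgeR adjusted p = 0.00482 against liver, 0.00715 against forebrain). These MXI1 calls were lost without Rumen 1 against liver (edgeR adjusted p = 0.0560) and without Rumen 1, Rumen 2 or Forebrain 1 against forebrain (adjusted p from 0.0629 to 0.0804). MLX, the partner of the MLXIP and MLXIPL glucose sensors, was higher in liver than in forebrain (61.7 ± 7.52 against 23.4 ± 4.46 CPM, SD, n = 2, edgeR adjusted p = 0.00463, and 0.0556 without Forebrain 2). Proliferation markers (9 of 12, none at 0 counts in any tissue) summed to 575 and 620.2 CPM in rumen, 1908 and 2594 CPM in liver and 181 and 189 CPM in forebrain. All 9 were lower in rumen than in liver and higher in liver than in forebrain, 6 were higher in rumen than in forebrain, and their part in the MYC and MXD3 levels was not tested.

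**Figure D5:**
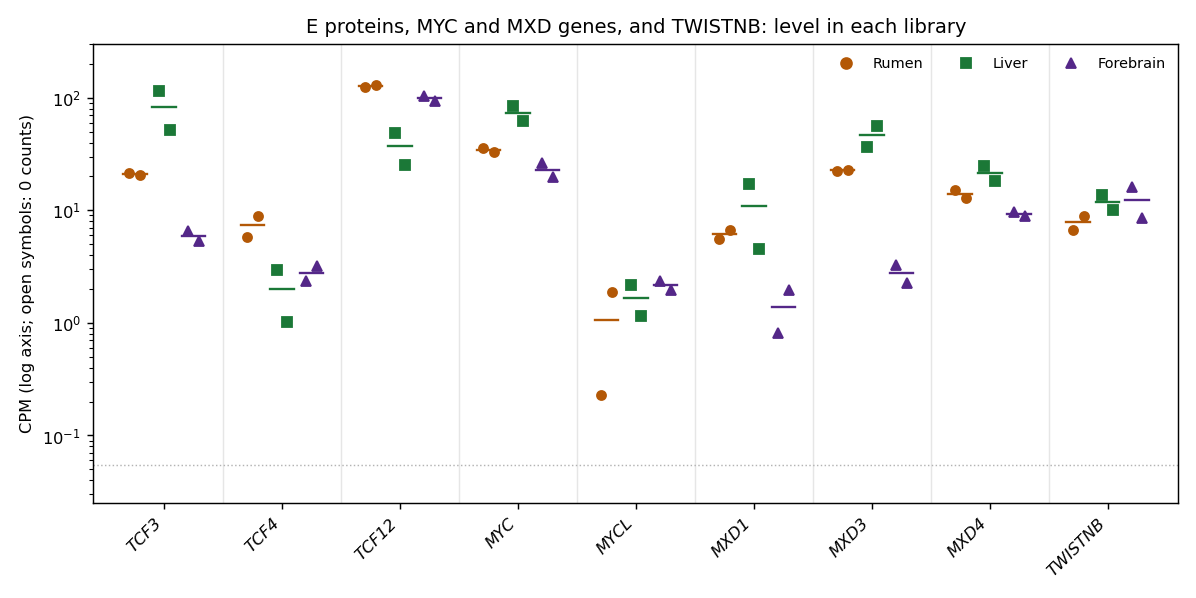
Level in CPM (vertical log axis) of the E proteins, the MYC and MXD members and TWISTNB in each library, with rumen as circles, liver as squares and forebrain as triangles and lines at the tissue means. TCF3, MYC and MXD3 lie highest in liver with rumen between liver and forebrain, and TCF12 lies lowest in liver.

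By mean level, 16 of the 40 tested members were highest in rumen, 13 in liver and 11 in forebrain. Over all tested genes the shares were 24.7% in rumen, 39.9% in liver and 35.4% in forebrain. The member lay above every library of the other tissues in 13 of the 16, in 8 of the 13 and in 8 of the 11. The matching share of all tested genes was not computed, so these counts are no result about the members. In 19 of the 40 no libraries of any 2 tissues overlapped, a share near the 46.6% of all tested genes.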

How the data were processed

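Per the labels, poly(A) RNA of the fetal tissues was made into NEBNext Ultra libraries. The values are read counts per gene symbol, deposited by the authors as 1 table of raw counts with no normalization. The submitters' processing notes name HISAT2 2.0.5, featureCounts 1.5.0-p3 and edgeR 3.18.1, and the sources used here name no build, annotation or strand setting. From these counts, edgeR 4.0.16 (R 4.3.3) scaled the libraries by TMM, kept 11478 genes by filterByExpr and fitted all 6 libraries by quasi-likelihood, each tissue having its own mean, with 3 residual degrees of freedom. The p-values were adjusted by the Benjamini-Hochberg method over all 11478 genes, with a threshold of 0.05. The SE was taken as the size of the log2 fold change over the square root of F. The code was tested on simulated data. Alternatives were DESeq2 size factors, total counts only, no filter, at least 5 CPM in 2 libraries, DESeq2 1.42.0, limma-voom 3.58.1, each pair of tissues alone, a replicate block and leaving out each library.

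The members, the side lists and the marker lists were chosen with earlier results of these data known. Members with a call were described with values in each library, and genes of a side list were named only if called, at most 5 per list and comparison by smallest adjusted p. Of the 45 members, 44 matched RefSeq by symbol and 1 as a synonym. The depth of 10271024 to 18528958 counts per library sets the precision of low counts, and intervals cover counting error only. No sequences or coordinates are printed. Single values of some marker genes are not reported here.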

Additional observations from a re-analysis of the deposited data

How the results depend on the processing

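No called member changed direction under the 14 alternatives. Called in all 14 were 10 of 22 members in rumen minus forebrain, 8 of 15 in rumen minus liver and 11 of 25 in liver minus forebrain, while 10 of 18, 10 of 25 and 4 of 15 uncalled ones passed under at least 1. Scaling to total counts only gave 3 lower members in rumen minus liver in place of 5. That scaling moved the median log2 fold change of all genes to 0.23 in rumen minus liver and to -0.34 in liver minus forebrain, and the calls among all genes to 2979 higher and 1785 lower and to 2560 higher and 3946 lower. With 1 library left out, higher and lower members numbered 9 to 20 and 2 to 11 in rumen minus forebrain, 8 to 14 and 1 to 8 in rumen minus liver, and 5 to 15 and 6 to 13 in liver minus forebrain. The calls among all genes in rumen minus forebrain ranged from 1878 to 7140, and numbered 7159 with only these 2 tissues in the fit, against 4515 otherwise. Where an arm had 1 library, it was assumed to vary like the others. Calls among all genes also changed in the other comparisons when a library was left out. Such changes in the counts of members or listed genes are therefore not particular to them. The cause of these changes was not tested.

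Replicate 1 minus replicate 2 correlated across genes at 0.01 for rumen and liver, -0.08 for rumen and forebrain and 0.08 for liver and forebrain. These values cannot show whether libraries of different tissues share a fetus, because fetuses need not differ alike in each tissue. The pairing of the libraries stays unknown. With the replicate block, 15 members were higher and 7 lower in rumen minus forebrain, 10 and 4 in rumen minus liver, and 13 and 11 in liver minus forebrain, HEY2 and ID2 being the calls not made. Depth limits members with few counts, such as HES5 in liver.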

Other observations

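Other bHLH factors outside the families above were counted from a list of 63 symbols, of which 42 were in the table and 32 were tested. The list shares MAX, MXI1, MNT, MGA, MLX, MLXIP and MLXIPL with that of the MYC network. In rumen 12 were higher and 6 lower than in forebrain (19.5% and 19.9% of all genes), and 6 were higher and 11 lower than in liver (20.1% and 20.3% of all genes), while in liver 15 were higher and 7 lower than in forebrain (29.4% and 25.9% of all genes). The 12 became 5 without Rumen 1, 4 without Rumen 2 or Forebrain 1 and 2 without Forebrain 2, and the 6 lower ones 3 without Rumen 1, Rumen 2 or Forebrain 2, 2 without Forebrain 1 and 12 without either Liver library. Against liver the 6 became 3 without either Rumen library and 10 without Liver 2, and the 11 became 6 without Rumen 1, 5 without Rumen 2 and 7 without either Forebrain library or with total counts as the scale. In liver against forebrain the 7 became 3 without either Forebrain library. HIF3A, a member of the hypoxia-inducible factor family, stood at 214 ± 15.6 CPM in rumen, 84.7 ± 1.61 CPM in liver and 3.33 ± 1.04 CPM in forebrain (SD, n = 2 each), higher than forebrain in rumen (edgeR adjusted p = 0.000251) and in liver (edgeR adjusted p = 9.43e-05). ARNT2, a neural partner of such factors, was highest in forebrain, at 21.7 ± 0.246 CPM in rumen, 6.04 ± 0.727 CPM in liver and 92.9 ± 10.7 CPM in forebrain (SD, n = 2 each). It passed in all 3 comparisons (edgeR adjusted p = 0.00143 in rumen minus forebrain, 0.00220 in rumen minus liver and 0.000110 in liver minus forebrain). TAL1 and LYL1, factors of blood progenitors, averaged 1.05 ± 1.49 and 2.29 ± 0.851 CPM in rumen against 323 ± 273 and 90.6 ± 70.5 CPM in liver (SD, n = 2, edgeR adjusted p = 0.00434 and 0.00231). The log2 fold change of -8.26 for TAL1 was -7.26 without Rumen 1, -15.1 without Rumen 2, -6.95 without Liver 1 and -8.93 without Liver 2, and that of -5.30 for LYL1 was -4.15 without Liver 1 and -5.94 without Liver 2. The sterol regulator SREBF1 stood at 41.2 ± 9.43 CPM in rumen, 176 ± 37.9 CPM in liver and 13.0 ± 0.876 CPM in forebrain (SD, n = 2 each, edgeR adjusted p = 0.00199 in rumen minus liver).

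The SP factors bind the same GC-rich DNA as the KLF proteins, and 4 of 9 were tested. In rumen 1 was higher and 1 lower than in forebrain (19.5% and 19.9% of all genes). In liver 2 were higher and 1 lower than in forebrain (29.4% and 25.9% of all genes). No SP factor passed in rumen against liver (40.3% of all genes did). The lower one was SP9 in both (edgeR adjusted p = 0.0394 in rumen, 0.0273 in liver), at 1.13 ± 0.446 CPM in forebrain (SD, n = 2) and 0 CPM in rumen and liver. The rumen call of SP9 was lost with no filter, under DESeq2 and with the replicate block. SP1 stood at 23.4 ± 6.07 CPM in rumen, 58.0 ± 42.0 CPM in liver and 4.53 ± 0.382 CPM in forebrain (SD, n = 2 each), higher than forebrain in rumen (edgeR adjusted p = 0.0185) and in liver (edgeR adjusted p = 0.00276). The call in rumen minus forebrain was lost without any 1 of the Rumen and Forebrain libraries (edgeR adjusted p from 0.0563 to 0.117) and under limma-voom, and the log2 fold change of 3.68 in liver minus forebrain was 2.64 without Liver 1 and 4.27 without Liver 2.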
